A study of Mus musculus with 22 samples.

Results

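Bcat2, Bckdha, Bckdhb, Dbt, Mccc1, Mccc2, Ivd, Auh, Hibadh and Aldh6a1 encode enzymes that break down the branched-chain amino acids leucine, isoleucine and valine. They were chosen by name as enzymes of this pathway and are 10 of the 21938 protein-coding genes of the annotation. Chromatin accessibility at each gene was read from the peaks that overlapped its locus, defined as the gene span on the mouse build GRCm38 (GENCODE vM21) with 20 kb added on each side. The 10 loci held 65 of the 104657 regions in which any library had a peak.

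Branched-chain amino acids are broken down in mitochondria in a common opening and then in separate branches. The transaminase Bcat2 removes the amino group, and the branched-chain ketoacid dehydrogenase complex, whose E1 subunits are encoded by Bckdha and Bckdhb and whose E2 core is encoded by Dbt, performs the irreversible step that follows. Ivd, Mccc1, Mccc2 and Auh then act on the leucine branch, and Hibadh and Aldh6a1 on the valine branch. Adipocytes use this pathway as a source of acetyl-CoA for fat synthesis, and the expression of its genes in white fat is known to be lower in obesity.

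The question behind the series is whether chromatin of fat cells remains changed once obesity has been reversed. ATAC-seq, in which a transposase cuts open chromatin, was applied to the adipocyte nuclei of epididymal fat in 22 male mice, 1 mouse per library, in 8 groups. All mice were AdipoERCre x NuTRAP animals on a background the labels spell C576BL6 that had received tamoxifen, so that Cre under the adiponectin promoter switched on a tag by which adipocyte nuclei were pulled down. The tag was induced before the diets began.

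C (n = 3) and H (n = 3) were 18 weeks old, and H had received high-fat diet for 12 weeks. CC_l (n = 2) and HH (n = 3) were 31 weeks old, and HH had received high-fat diet for 25 weeks. For weight loss, CC_s (n = 3) and HC (n = 3) were 26 weeks old and CCC (n = 2) and HHC (n = 3) were 39 weeks old. HC and HHC had received high-fat diet for 12 and 25 weeks, respectively, and then standard chow for 8 weeks, and their controls were switched from low-fat to standard chow too. The labels name a short and a long arm, and the arms share no library. Any difference in handling between the arms cannot be told apart from duration. Each diet group was compared with the control group of its own age.

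The deposited lists held 40528 to 60523 peaks per library and no read counts, so the depth of each library is unknown. Each peak has a total signal, the coverage summed over its bases, and a maximum signal. Library values were put on a common log2 scale by rank, and features below the smallest list sat at a floor of 14.19 for promoters, 14.06 for loci and 14.01 for regions. The ratio of a library's median maximum signal to its lowest was 6.82 to 8.92 in C and 4.70 to 6.40 in H. It was under 4 in HH 1 (3.75), HC 3 (2.43), CCC 2 (3.67) and HHC 3 (2.25), which are called low-enrichment libraries. All 10 adipocyte marker promoters, Adipoq, Plin1 and Lep among them, had a peak in all 22 libraries. Peaks stood at 2 to 6 of 8 macrophage, 0 to 8 of 8 endothelial, 3 to 8 of 8 stromal progenitor, 0 to 5 of 5 mesothelial and 0 to 2 of 8 lymphocyte marker promoters. Mean signal over the mesothelial markers was 14.29 to 14.99 in C and 14.42 to 15.01 in CC_l, and 14.19 to 14.20 in H and 14.19 to 14.22 in HH. It was 14.51 to 15.34 in CC_s and 14.83 to 15.80 in HC, and 14.27 to 14.47 in CCC and 14.87 to 15.56 in HHC. Macrophage means were 15.11 to 15.40 in C and 14.68 to 15.01 in H, and overlapped in the other 3 pairs. Adipocyte means were 19.88 to 19.96 in C and 20.21 to 20.37 in H, and also overlapped in the other 3 pairs. Lymphocyte means were 14.51 to 14.58 in CCC and 14.19 to 14.38 in HHC, were 14.21 to 14.60 in C with H just below at 14.19 to 14.21, and overlapped in the other 2 pairs. Endothelial means overlapped in all 4 pairs and were highest in HH (up to 15.75) and HHC (up to 14.88), with both CC_l libraries at the floor of 14.19. Stromal progenitor means overlapped in all 4 pairs, with a median promoter difference of 0.67 over the 7 tested after weight loss. The part of these marker differences in the results was not tested. In bulk nuclei, fewer nuclei with an open site and less opening per nucleus cannot be told apart.

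The sequences given here are the promoters of Ivd and Bcat2, whose promoter signal was lower in both obesity pairs, and the maxima of a Bckdhb and a Hibadh region. Promoter sequences come from RefSeq on GRCm38.p6 and run from 250 bases before to 50 after a gene start, and 9 of the 10 genes were matched, with 12 windows in all because Bcat2, Bckdhb and Aldh6a1 have more than 1. Capitals in the promoters mark the letters CCAAT or, on the other strand, ATTGG. The Ivd promoter lies at chr2:118861744-118862043 and the Bcat2 promoter at chr7:45569903-45570202, both on the plus strand.
Ivd promoter: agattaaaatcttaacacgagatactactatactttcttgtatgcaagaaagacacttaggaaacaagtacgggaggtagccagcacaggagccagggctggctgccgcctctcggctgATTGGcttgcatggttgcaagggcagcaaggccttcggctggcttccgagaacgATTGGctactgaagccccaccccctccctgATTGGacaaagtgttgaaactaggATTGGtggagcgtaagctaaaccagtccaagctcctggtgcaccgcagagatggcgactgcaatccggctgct
Bcat2 promoter: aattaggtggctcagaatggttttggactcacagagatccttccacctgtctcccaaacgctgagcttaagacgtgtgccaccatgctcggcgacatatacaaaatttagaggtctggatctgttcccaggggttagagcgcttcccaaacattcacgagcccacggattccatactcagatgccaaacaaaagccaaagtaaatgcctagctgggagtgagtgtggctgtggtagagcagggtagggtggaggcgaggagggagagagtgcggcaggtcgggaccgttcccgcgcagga
The Ivd window holds 4 such matches, as does 1 window of Aldh6a1, and the Bcat2 window holds 0. Of 32851 promoter windows of the same length 1.06% held 4 or more. At least 3 matches were present in 4 of the 12 windows, those of Ivd, Mccc1, Aldh6a1 and Mccc2, and in 3.37% of all promoters. At least 1 was present in 8 of the 12 windows and in 37.4% of all promoters. GGGCGG, the GC box, was found on either strand in Mccc1, Hibadh, Bckdhb and Auh, and in 35.7% of all promoters. AGGTCA, a nuclear receptor recognition motif, was found in Hibadh, Bckdhb and Aldh6a1 and in 16.3% of all promoters, and CACGTG, the E box, in Mccc2 and in 7.15%. The letters TGANTCA (AP-1) and TTGCNNAA (C/EBP) were in none of the 12 windows and in 7.81% and 10.8% of all promoters. Each motif was counted by itself on both strands, overlaps with other motifs included, and a match describes letters and not a bound site.

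The windows at the region maxima are 200 bases on the plus strand of GRCm38.p6, with the 20 bases at the median position of the maximum in capitals. The first lies in an intron of Bckdhb at chr9:84094257-84094456, and the second downstream of Hibadh at chr6:52521696-52521895.
Bckdhb intron: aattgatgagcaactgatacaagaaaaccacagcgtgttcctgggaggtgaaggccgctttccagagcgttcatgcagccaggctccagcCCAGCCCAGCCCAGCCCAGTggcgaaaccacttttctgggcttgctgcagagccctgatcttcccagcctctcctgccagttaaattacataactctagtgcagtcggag
Hibadh 3′ flank: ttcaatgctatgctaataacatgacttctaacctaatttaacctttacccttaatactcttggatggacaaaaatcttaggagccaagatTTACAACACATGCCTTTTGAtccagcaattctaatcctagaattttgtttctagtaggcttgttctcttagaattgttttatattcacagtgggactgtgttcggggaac
Neither window held any of the 6 motifs. Among windows of the same length at 43307 peak maxima of C 1, CCAAT was found in 29.6% and TTGCNNAA in 17.2%.

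At promoters, defined as 2000 bp on each side of every transcription start, the genes of this pathway were open in nearly every library. A promoter peak was present in 22 of 22 libraries for 9 genes and in 19 of 22 for Auh. The median promoter signal stood between the 54.9th percentile (Auh) and the 94.1st percentile (Bcat2) of protein-coding promoters. Signal was a log2 value of 14.19 to 16.45 for Auh, 17.05 to 18.80 for Bcat2 and 17.17 to 18.38 for Aldh6a1 over the 22 libraries. The promoters of Bckdha and Exosc5, whose starts are 183 bp apart, and of Aldh6a1 and Lin52, 419 bp apart, share peaks and cannot be assigned to 1 gene.

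**Figure D1:**
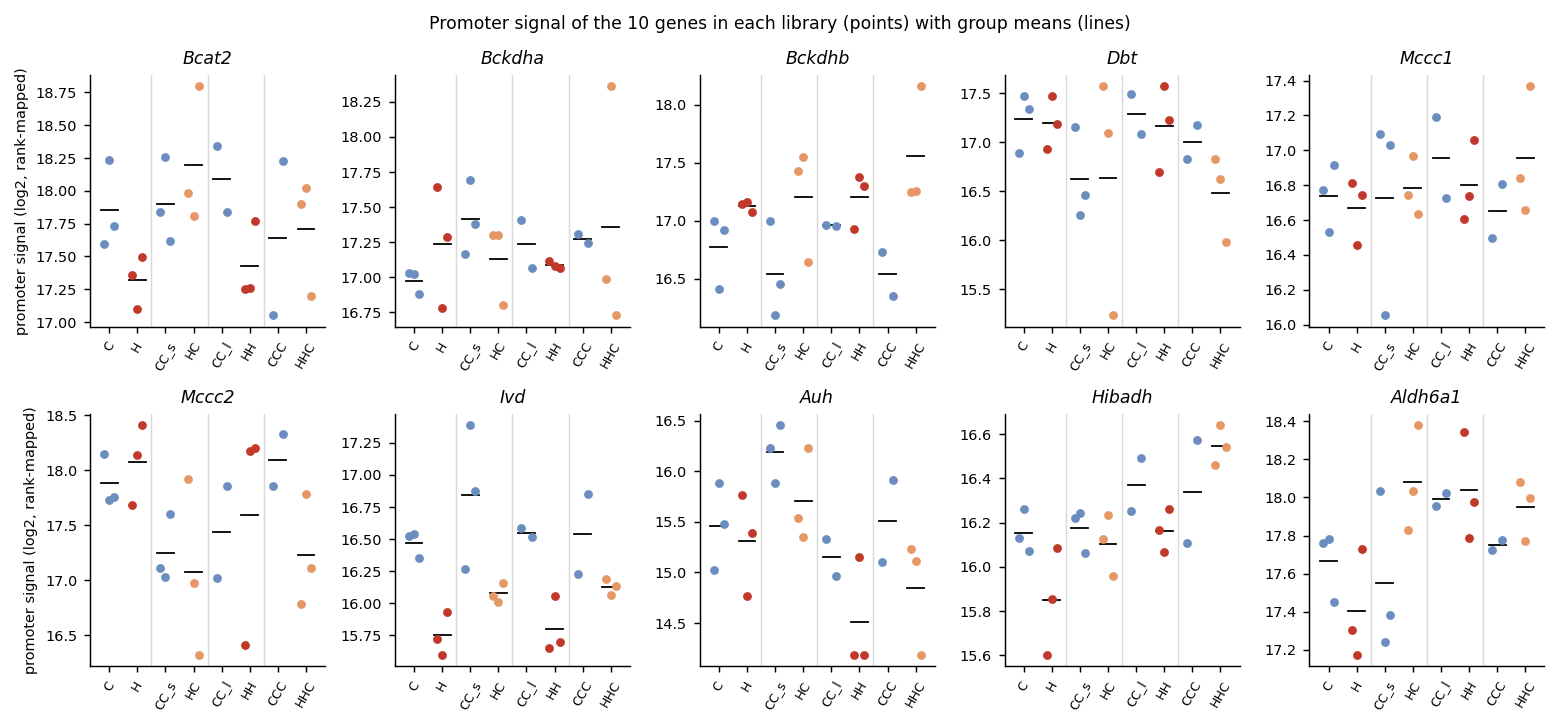
Promoter signal (log2, rank-mapped) of the 10 genes in each library, as points, with group means as lines, for controls in blue, obese groups in red and weight loss groups in orange. Ivd was lower in every obese and weight loss library than in each control of its own pair, and Bcat2 was lower in both obese groups.

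Ivd encodes isovaleryl-CoA dehydrogenase, the first enzyme specific to leucine breakdown. Its promoter signal was 16.52, 16.54 and 16.35 in C and 15.72, 15.60 and 15.93 in H, and it was 16.58 and 16.51 in CC_l and 15.65, 16.06 and 15.70 in HH. After weight loss it was 16.27, 17.39 and 16.87 in CC_s against 16.06, 16.01 and 16.16 in HC, and 16.22 and 16.85 in CCC against 16.19, 16.07 and 16.13 in HHC. All H libraries lay below all C libraries and all HH below all CC_l, and the same order held after weight loss, with CCC 1 and HHC 1 close together. Ivd was lower without overlap in all 4 pairs, which held for 0.38% of the 19198 promoters compared. Over both obesity durations, in a fit with duration as a term, the difference was -0.73 ± 0.13 (SE, 11 libraries, limma adjusted p = 0.017), and Ivd fell. In the weight loss groups it was -0.61 ± 0.23 (limma adjusted p = 0.455), which did not pass.

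Of the 11 fits without 1 library, 2 lost the call at the Ivd promoter, with a limma adjusted p of 0.0559 without C 2 and 0.0563 without CC_l 2. The difference stayed between -0.78 and -0.70 in all 11. With the maximum signal in place of the total, the difference was -0.29 (limma adjusted p = 0.201), with the strongest peaks only it was -0.21 (adjusted p = 0.0748), with the replicate block it was -0.71 (adjusted p = 0.135) and with the enrichment ratio as a covariate it was -0.67 (adjusted p = 0.0911). In all, 6 of 20 alternatives ended the call. The height of its promoter peak over the library's median maximum was 3.35, 4.59 and 3.79 in C and 1.88, 2.55 and 1.91 in H. The same ratio was lower without overlap in H than in C at 8 of the 10 genes, all but Mccc1 and Auh, and at 38.0% of all promoters, a large background for this measure.

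Bcat2 encodes the mitochondrial branched-chain aminotransferase. Its promoter signal was 17.60, 18.23 and 17.73 in C against 17.36, 17.10 and 17.50 in H, and 18.34 and 17.84 in CC_l against 17.25, 17.26 and 17.77 in HH. It was lower in each obese library than in every control of its age, as was Ivd, and 3.74% of promoters were lower without overlap in both pairs. The difference over both durations was -0.59 ± 0.18 (SE, 11 libraries, limma adjusted p = 0.094), which did not pass. It passed in 1 of 20 alternatives, median-centred scaling (-0.81, limma adjusted p = 0.0455), and the other 19 gave a limma adjusted p of up to 0.980, the highest with the maximum signal, where the difference was -0.01. After weight loss the values overlapped, at 17.84, 18.25 and 17.62 in CC_s and 17.98, 17.81 and 18.80 in HC, and at 17.05 and 18.23 in CCC and 17.90, 18.02 and 17.20 in HHC, and the difference was 0.19 ± 0.29 (limma adjusted p = 0.761).

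No promoter of the 10 passed both thresholds, an adjusted p under 0.05 and a log2 difference beyond 1, in any comparison. For H against C, 0 of 10 passed in limma, where 2.56% of all promoters were called, and 1 of 10 had an unadjusted p under 0.05, as did 20.4% of all promoters. In HH against CC_l 0 of 10 passed beside 0.106% of all, and 1 had an unadjusted p under 0.05 beside 6.93% of all. Over both obesity durations 0 passed beside 2.3%, and 2 had an unadjusted p under 0.05 beside 19.9%. In HC against CC_s 0 passed beside 0.0912%, and 0 had an unadjusted p under 0.05 beside 6.50%. In HHC against CCC 0 passed beside 0.0%, and 0 had an unadjusted p under 0.05 beside 3.95%. Over both weight loss groups 0 passed beside 0.0127%, and 2 had an unadjusted p under 0.05 beside 9.77%. At an adjusted p under 0.05 with no limit on size, Ivd was 1 of 10 over both obesity durations, and 3.94% of promoters passed.

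The median promoter difference of the 10 genes was -0.12 in obesity, beside 0.01 over all promoters, and -0.03 after weight loss, beside 0.05. The other genes lay on both sides of zero. Auh, whose product hydrates methylglutaconyl-CoA late in leucine breakdown, differed by -0.37 ± 0.27 in obesity and -0.56 ± 0.29 after weight loss, and its signal was at the floor in HH 1, HH 3 and HHC 3. Bckdhb, the E1 beta subunit, differed by 0.30 ± 0.14 in obesity (limma adjusted p = 0.277) and by 0.82 ± 0.27 after weight loss (limma adjusted p = 0.387).

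**Figure D2:**
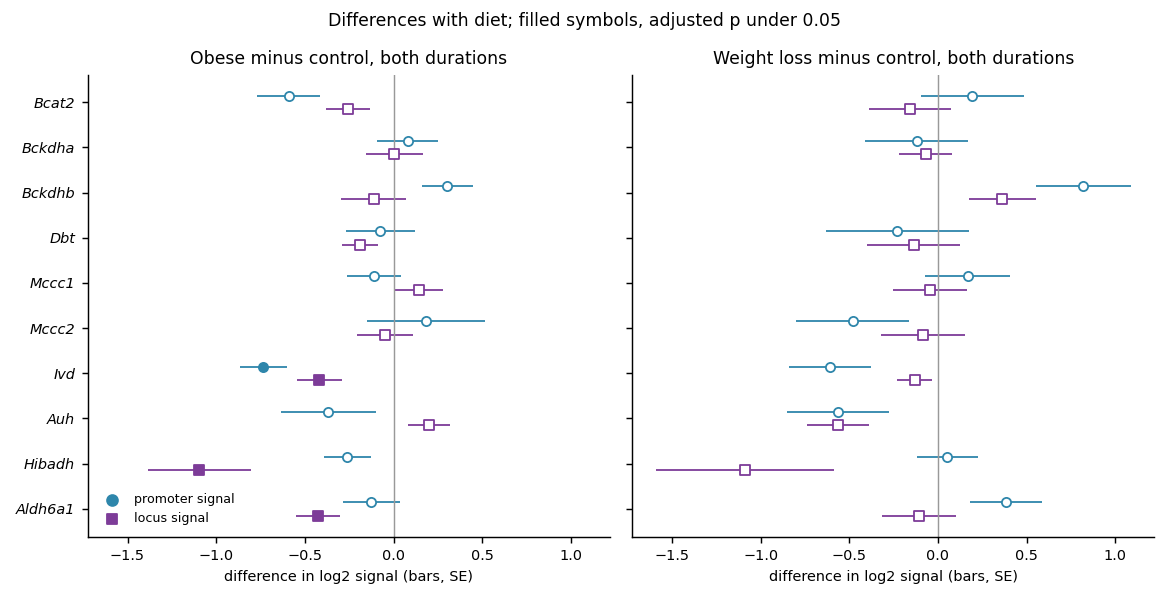
Differences in log2 signal at promoters and loci of the 10 genes for obesity (left) and weight loss (right), each over both durations, with standard errors as bars and filled symbols where the limma adjusted p was under 0.05. Filled symbols stand at the Ivd promoter and the Hibadh, Aldh6a1 and Ivd loci in obesity and at none after weight loss.

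Over whole loci, signal was the sum over all peaks that overlapped the gene and its flanks. Other protein-coding genes overlap the loci of Bcat2 (2), Bckdha (5), Dbt (2), Mccc1 (1), Mccc2 (1), Ivd (2) and Aldh6a1 (3). Peaks at those genes enter the sums. Hibadh, Aldh6a1 and Ivd fell with obesity over both durations, 3 of 10 loci at a limma adjusted p under 0.05, where 16.7% of 17842 loci were called. At an unadjusted p under 0.05 there were also 3 of 10, beside 32.8% of all loci. Hibadh was also the 1 of 10 that passed in H against C, where 11% of loci were called. In that pair 3 of 10 had an unadjusted p under 0.05, as did 31.2% of loci. After weight loss 0 of 10 passed in limma, where 0.071% of loci were called, and 1 of 10 had an unadjusted p under 0.05, as did 15.1% of loci. The median difference of the 10 loci was -0.15 in obesity beside -0.02 over all loci, and -0.12 after weight loss beside -0.01.

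Hibadh encodes 3-hydroxyisobutyrate dehydrogenase, which oxidizes a valine intermediate that cells can also release. The gene lies at chr6:52546228-52640389 on the minus strand, and no other protein-coding gene lies within its locus. Its locus signal was 18.61, 18.35 and 18.08 in C and 16.14, 16.97 and 17.49 in H. In the long arm it was 17.78 and 18.33 in CC_l and 16.85, 17.87 and 17.60 in HH. All H libraries lay below all C libraries, whereas HH 2 lay above CC_l 1. The share of all loci lower without overlap in H than in C was not counted. The difference was -1.48 ± 0.34 in H against C (limma adjusted p = 0.0396) and -0.61 ± 0.35 in HH against CC_l (limma adjusted p = 0.551), and -1.09 ± 0.29 over both (SE, 11 libraries, limma adjusted p = 0.027). The exact permutation test within durations, two-sided over 200 relabellings, gave p = 0.020.

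After weight loss the Hibadh locus stood at 17.41, 18.68 and 18.82 in CC_s against 18.00, 17.38 and 15.20 in HC, and at 18.29 and 18.24 in CCC against 18.17, 17.91 and 16.79 in HHC. HC overlapped CC_s, HHC lay below CCC, and the lowest library of each weight loss group was the low-enrichment one, HC 3 and HHC 3. The difference was -1.09 ± 0.50 (limma adjusted p = 0.340), and -0.49 without the low-enrichment libraries, an alternative chosen after the data had been seen. The exact permutation p was 0.075. The percentage of locus bases under peaks was 23.3, 21.7 and 22.7 in C and 4.00, 7.26 and 10.3 in H, with no overlap. It was 13.1 and 14.1 in CC_l and 4.43, 15.5 and 11.2 in HH, which overlapped. How many loci had a covered length lower without overlap in H than in C was not counted.

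On the rank-mapped scale, covered length of the Hibadh locus fell by 9.25 percentage points over both obesity durations (SE 2.57, limma adjusted p = 0.0494). It was 1 of 10 loci called for covered length, where 7.53% of loci were called. None (0 of 10) passed in limma in H against C, where 2.1% of loci were called, and 1 had an unadjusted p under 0.05, as did 22.2% of loci. After weight loss 0 of 10 passed, where 0.0534% were called, and 1 had an unadjusted p under 0.05, as did 12.3%. The obesity call for covered length was lost in 18 of 20 alternatives. Hibadh promoter signal was 16.13, 16.26 and 16.07 in C and 15.60, 15.86 and 16.09 in H, and H 3 lay above C 3.

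The size of the Hibadh difference changed with how the locus was summed. With the maximum signal the difference over both obesity durations was -0.06, with no flank it was -0.59 and with a flank of 50 kb it was -0.37, none of which passed. With the strongest peaks only it was -0.74 (limma adjusted p = 0.0554) and with the replicate block -1.17 (limma adjusted p = 0.0565). In all, 10 of 21 alternatives ended the call in obesity and 12 of 15 in H against C. Of the 11 fits without 1 library, 4 lost the call, with a limma adjusted p of 0.0547 without C 1, 0.0675 without C 2, 0.0613 without H 2 and 0.0706 without CC_l 2. The difference lay between -1.28 and -0.86 in all 11. For H against C it lay between -1.79 and -1.12 in the 6 such fits, and the limma adjusted p was 0.0877 without C 1, 0.0755 without H 1, 0.132 without C 2, 0.116 without H 2 and 0.0671 without C 3. For the covered length, 10 of the 11 fits without 1 library did not pass, all but the fit without HH 2, with a limma adjusted p of up to 0.113. With the enrichment ratio as a covariate, an alternative chosen after the data had been seen, the signal difference was -0.66 (limma adjusted p = 0.174).

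**Figure D3:**
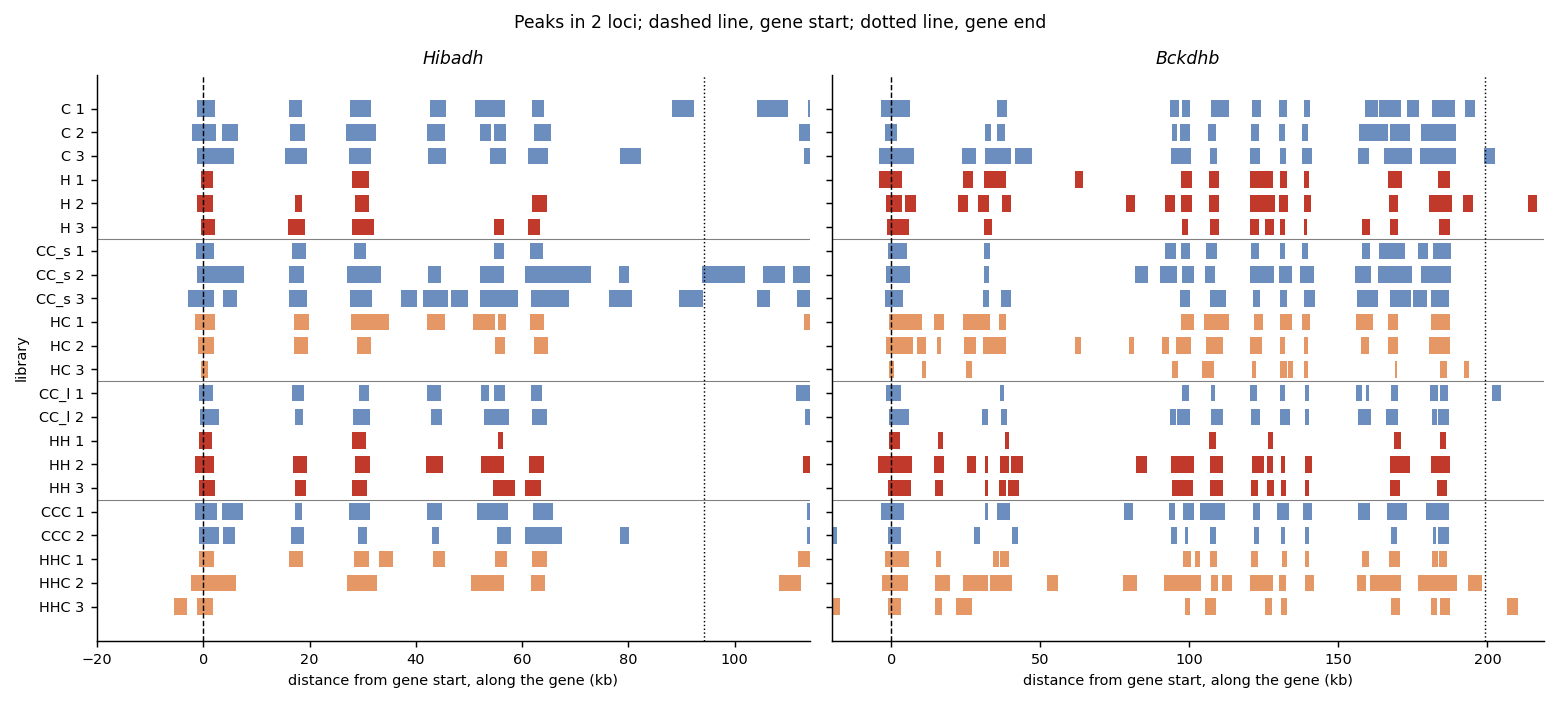
Peaks of each library (1 line per library, ordered by group) across the Hibadh and Bckdhb loci, by distance from the gene start along the gene in kb, with the gene start dashed and the gene end dotted. Hibadh has fewer covered bases in H than in C, and Bckdhb has a peak about 169 kb into the gene in all 22 libraries.

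Aldh6a1 encodes methylmalonate-semialdehyde dehydrogenase, which works after Hibadh in valine breakdown. Its locus signal was 18.15, 18.40 and 18.32 in C against 17.66, 17.75 and 18.10 in H, and 18.38 and 18.64 in CC_l against 17.90, 18.08 and 18.37 in HH. Each obese library lay below every control of its age, with CC_l 1 and HH 3 close together in the long arm. The difference over both durations was -0.43 ± 0.12 (SE, limma adjusted p = 0.038, exact permutation p = 0.015). After weight loss the values overlapped, at 18.30, 18.26 and 18.40 in CC_s, 18.71, 18.38 and 17.94 in HC, 18.49 and 18.18 in CCC, and 18.16, 18.56 and 17.46 in HHC. The difference there was -0.11 ± 0.21 (limma adjusted p = 0.793). Bbof1, Lin52 and Rnf113a2 overlap the Aldh6a1 locus, so its sum cannot be assigned to 1 gene.

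The Ivd locus was 18.55, 18.77 and 18.50 in C against 18.33, 18.11 and 18.46 in H, and 19.02 and 18.59 in CC_l against 18.01, 18.40 and 18.34 in HH. Every obese library lay below every control of its age, and the difference over both durations was -0.42 ± 0.13 (SE, limma adjusted p = 0.044, exact permutation p = 0.005, the smallest that 200 relabellings allow). It was lower without overlap in both pairs, as were Dbt and Aldh6a1, and 7.36% of loci were. After weight loss it was 18.55, 18.57 and 18.50 in CC_s against 18.40, 18.41 and 18.52 in HC, and 18.48 and 18.62 in CCC against 18.49, 18.34 and 18.30 in HHC. The groups overlapped in both pairs, and the difference was -0.13 ± 0.10 (limma adjusted p = 0.484, exact permutation p = 0.040). Bahd1 and Knstrn overlap the Ivd locus, so its sum cannot be assigned to 1 gene. The region there of smallest obesity p differed by -0.45 (limma adjusted p = 0.0252), with its maximum 39.4 kb from the Ivd start. The Bahd1 start is 39499 bp from the Ivd start. The region over Ivd itself differed by -0.51 (limma adjusted p = 0.0737).

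Leaving out 1 library ended the call in 6 of 11 fits for the Aldh6a1 locus and in 8 of 11 for the Ivd locus, while the differences stayed between -0.49 and -0.38 and between -0.47 and -0.32. For Aldh6a1 the limma adjusted p was 0.0869 without H 1, 0.0975 without C 2, 0.0857 without H 2, 0.0708 without C 3, 0.10 without CC_l 2 and 0.0584 without HH 2. For Ivd it was 0.0522 without C 1, 0.0682 without H 1, 0.107 without C 2, 0.10 without H 2, 0.108 without CC_l 1, 0.0636 without CC_l 2, 0.0532 without HH 2 and 0.0664 without HH 3. In all, 12 of 21 alternatives ended the call for Aldh6a1 and 13 of 21 for Ivd. For Aldh6a1 the difference was -0.02 with the maximum signal (limma adjusted p = 0.913), -0.22 with the strongest peaks only (0.476), -0.48 with the replicate block (0.0518), -0.40 with no flank (0.161), -0.30 with a flank of 50 kb (0.085) and -0.25 with the enrichment ratio as a covariate (0.240). For Ivd it was -0.28 with the maximum signal (limma adjusted p = 0.0974), -0.42 with no trend (0.0562), -0.43 with the replicate block (0.148), -0.50 with no flank (0.113) and -0.40 with the enrichment ratio as a covariate (0.150).

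Auh was lower after weight loss, without passing in limma. Its locus signal was 18.90, 18.81 and 19.24 in CC_s against 18.47, 18.67 and 17.95 in HC, and 19.20 and 19.27 in CCC against 19.11, 18.76 and 18.36 in HHC. Every weight loss library lay below every control of its age, with the low-enrichment libraries HC 3 and HHC 3 the lowest, and 3.58% of loci were lower without overlap in both weight loss pairs. The difference was -0.56 ± 0.17 (SE, 11 libraries, limma adjusted p = 0.210, exact permutation p = 0.015), and the 20 exact tests of the 10 loci were not adjusted. In obesity the values overlapped, at 18.80, 18.59 and 18.83 in C, 18.70, 19.12 and 18.90 in H, 18.56 and 18.70 in CC_l, and 18.69, 19.20 and 18.70 in HH, and the difference was 0.20 ± 0.12 (limma adjusted p = 0.277).

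Bcat2 at the locus differed by -0.26 in obesity and -0.16 after weight loss, and the dehydrogenase subunits Bckdha, Bckdhb and Dbt by 0.00, -0.11 and -0.19 in obesity and by -0.07, 0.36 and -0.14 after weight loss. The Bckdha locus difference had opposite signs in the obesity pairs, with signal at 19.37, 19.30 and 19.18 in C against 19.75, 19.65 and 19.45 in H, and 18.99 and 19.42 in CC_l against 18.59, 18.74 and 19.06 in HH. All H libraries lay above all C libraries, as they did at 19.7% of loci, and HH overlapped CC_l. The difference was 0.33 ± 0.12 in H against C (limma adjusted p = 0.117) and -0.41 ± 0.22 in HH against CC_l (limma adjusted p = 0.519). Bckdhb was the 1 locus of 10 with a positive difference after weight loss. Its signal was 19.37, 18.71 and 18.88 in CC_s against 19.08, 19.33 and 19.08 in HC, and 19.06 and 18.56 in CCC against 18.97, 19.47 and 19.79 in HHC, which overlapped in both pairs (limma adjusted p = 0.378). Mccc1 and Mccc2, the subunits of the biotin-dependent methylcrotonyl-CoA carboxylase, differed by 0.14 and -0.05 in obesity and by -0.04 and -0.09 after weight loss. None of these passed in limma, and the exact permutation p was 0.030 for Dbt in obesity. Of the 20 exact tests of the 10 loci, 6 gave p under 0.05, those of Dbt, Ivd, Hibadh and Aldh6a1 in obesity and of Ivd and Auh after weight loss. The exact test was run on the 10 loci alone, so no share over all loci stands beside this count. In limma an unadjusted p under 0.05 was found at 3 of 10 in obesity and at 1 of 10 after weight loss. Over all loci the shares in limma were 32.8% and 15.1%. The locus signal ran over the 22 libraries from 16.79 to 18.34 for Dbt, from 16.93 to 18.09 for Mccc1 and from 17.14 to 18.60 for Mccc2.

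Across libraries the 10 loci did not all vary together. The correlation of each locus with the mean of the other 9 over 22 libraries, a description across all groups, was highest for Mccc2 (0.739) and Dbt (0.736) and lowest for Bckdhb (-0.0804). The correlation with the log2 enrichment ratio was 0.686 for Aldh6a1, 0.679 for Hibadh, 0.650 for Mccc2, 0.644 for Dbt, 0.481 for Mccc1, 0.470 for Bcat2, 0.420 for Auh, 0.282 for Bckdha, 0.237 for Ivd and -0.00394 for Bckdhb. The mean of the 10 centred loci was lowest in HC 3 (-0.62), HHC 3 (-0.45) and HH 1 (-0.44), which are 3 of the 4 low-enrichment libraries.

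Single regions inside the loci were compared in the same way. Of 37 regions tested in H against C, 4 passed both thresholds, where 8.31% of 30837 regions were called. Over both obesity durations 1 of 39 passed, where 4.37% were called, and after weight loss 0 of 42 passed in limma, where 0.244% were called. There 6 of 42 had an unadjusted p under 0.05, as did 14.0% of all regions. The called regions lay in the Bckdhb and Hibadh loci, and 1 of the 4 in H against C, in a Hibadh intron, entered the fit through its level in C and is only described.

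The Bckdhb region called over both durations lies at chr9:84080656-84115059 within the gene, and its maximum is 169 kb from the start, in the intron sequence printed above. A peak was present in 22 of 22 libraries with its maximum within 200 bp of the same position in all 22. Region signal was 18.36, 18.30 and 17.82 in C against 16.80, 16.98 and 17.13 in H, and 17.72 and 17.57 in CC_l against 16.32, 17.21 and 16.99 in HH. All obese libraries lay below all controls of their age, as they did at 9.81% of regions. It fell by 1.19 on the log2 scale in H against C (SE 0.17, limma adjusted p = 0.0079) and by 1.02 over both durations (SE 0.17, 11 libraries, limma adjusted p = 0.0034). The HH against CC_l difference alone was -0.81 ± 0.28 (limma adjusted p = 0.293).

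After weight loss the Bckdhb region was 18.25, 17.90 and 17.96 in CC_s against 17.24, 17.27 and 16.49 in HC, all lower, and 17.82 and 17.17 in CCC against 17.47, 17.84 and 17.62 in HHC, which overlapped. The difference was -1.04 ± 0.25 in HC against CC_s (limma adjusted p = 0.156), 0.14 ± 0.27 in HHC against CCC (limma adjusted p = 0.883) and -0.51 ± 0.25 over both (limma adjusted p = 0.382). The difference between the durations was not tested. The height of its maximum over the library median was 4.85, 5.45 and 3.34 in C against 2.08, 2.43 and 2.58 in H, and 3.90 and 3.96 in CC_l against 1.53, 2.39 and 1.89 in HH. It was 4.68, 3.54 and 3.89 in CC_s against 2.53, 2.32 and 2.53 in HC. Heights in CCC were 3.45 and 2.67 against 3.18, 3.31 and 1.83 in HHC. H, HH and HC heights lay below the controls of their age, as they did at 3.79% of regions, and HHC overlapped CCC.

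This region kept a limma adjusted p under 0.05 over both obesity durations in all 18 alternatives, from 0.0005 to 0.0325, among them the maximum signal, the replicate block and every fit without 1 library. Its size fell under the fold threshold in several of these, to -0.56 with the maximum signal, -0.95 without C 1, -0.96 without H 1, -0.96 without C 2, -0.93 without HH 1 and -0.84 with the enrichment ratio as a covariate. In H against C alone the limma adjusted p was 0.0632 without C 2 and 0.0715 with the maximum signal. Bckdhb locus signal as a whole was 19.54, 19.09 and 19.09 in C and 19.03, 19.33 and 18.87 in H, which overlapped.

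**Figure D4:**
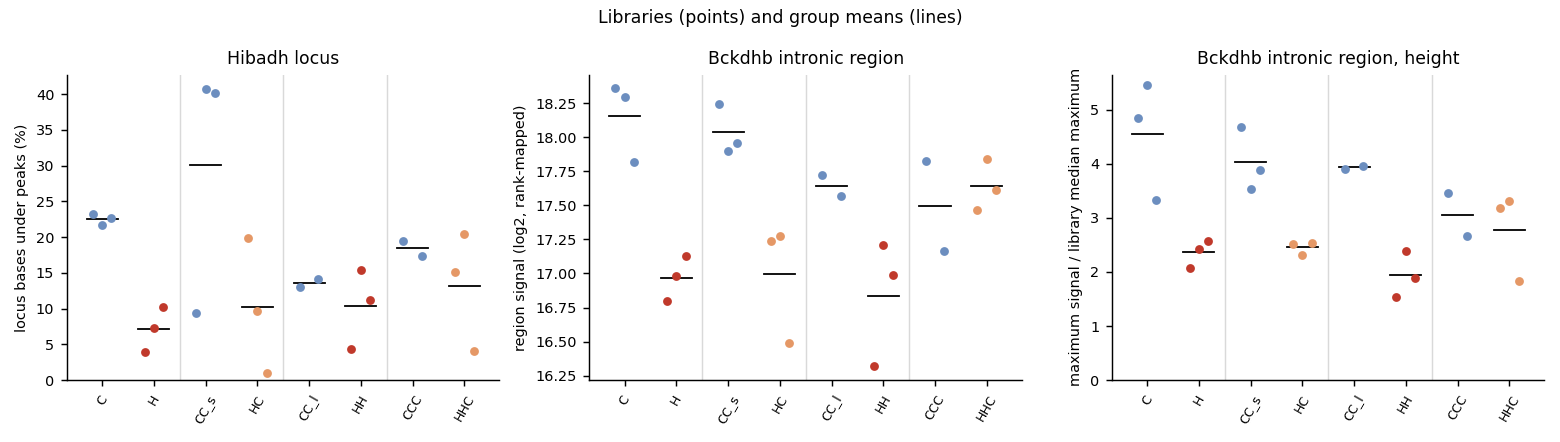
Percentage of Hibadh locus bases under peaks (left), log2 signal of the Bckdhb intronic region (middle) and its maximum signal over the library median (right) in each library, as points (controls blue, obese red, weight loss orange), with group means as lines. The Hibadh values in H, 4.00 to 10.3, lie below those in C, and the Bckdhb region is lower in H, HH and HC than in their controls.

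The other 3 called regions were chosen for the text after their values were seen, and each was called only in H against C. A region at chr9:84045433-84053804, in an intron of Bckdhb 122 kb from the start, was 14.37, 14.37 and 14.27 in C and 15.85, 15.88 and 15.53 in H, and rose by 1.41 (SE 0.23, limma adjusted p = 0.0098). All H libraries were above all C libraries, and the covered length was 5.92 to 8.26 kb in H against 2.67 to 3.25 kb in C. The share of all regions higher without overlap in H was not counted. A rise in H against C with an unadjusted p under 0.05 in limma was found at 17.0% of regions. In the long arm the signal of this region was 14.48 and 14.44 in CC_l and 14.06, 15.44 and 15.22 in HH, with HH 1 below both controls. After weight loss it was 14.46, 14.98 and 14.01 in CC_s against 14.01, 15.03 and 14.01 in HC, and 14.01 and 14.01 in CCC against 14.01, 15.69 and 14.08 in HHC, which overlapped, with a joint difference of 0.18 ± 0.35 (limma adjusted p = 0.782). The difference over both obesity durations was 0.98 (limma adjusted p = 0.0396), under the fold threshold. In H against C the limma adjusted p was 0.0675 without C 2, and with the maximum signal the difference was 0.18 (adjusted p = 0.560).

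A region at chr6:52513061-52536182 reaches into the Hibadh locus from downstream, with its maximum 24432 bp beyond the gene's end and thus outside the 20 kb flank. It was 17.22, 17.01 and 16.60 in C and 15.11, 15.24 and 15.96 in H, and fell by 1.51 (SE 0.27, limma adjusted p = 0.013). In the long arm it was 16.48 and 16.89 in CC_l and 17.03, 16.65 and 16.31 in HH, which overlapped, and the difference was -0.02 ± 0.27 (limma adjusted p = 0.980). After weight loss it was 16.78, 17.37 and 17.47 in CC_s against 16.24, 16.53 and 15.85 in HC, and 17.00 and 17.65 in CCC against 17.10, 16.88 and 14.01 in HHC, where the low-enrichment library HHC 3 had no peak. H lay wholly below C and HC wholly below CC_s, as they did together at 5.36% of regions, and HHC overlapped CCC. The difference was -1.0 ± 0.28 in HC against CC_s (limma adjusted p = 0.213) and -1.15 ± 0.47 over both weight loss groups (limma adjusted p = 0.312), neither of which passed. Its H against C adjusted p in limma was 0.0628 without C 1, 0.0568 without H 1, 0.0825 without C 2 and 0.0610 without H 2. A region in a Hibadh intron, chr6:52581166-52590023, was 15.59, 15.25 and 15.10 in C and at the floor with no peak in H 1 and H 2, with 14.72 in H 3. It could enter the fit only through its level in C, so its difference of -1.07 is given as a description with no test. It was 14.94, 15.45 and 15.80 in CC_s against 15.29, 14.72 and 14.01 in HC, and 15.58 and 14.93 in CCC against 14.90, 15.65 and 14.01 in HHC, which overlapped.

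The effects did not differ detectably between durations, or between obesity and weight loss. Of 80 such tests over promoters and loci, 0 had a limma adjusted p under 0.05 and 2 had an unadjusted p under 0.05, where the share over all features was 1.33% to 8.93% by comparison. The 2 are the Bckdha locus and the Auh locus.

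The 23 other genes of the pathway, listed for transport, regulation and the later steps, were counted in the same fits. At promoters 1 of 23 was called in obesity, Bckdk, the kinase that switches the dehydrogenase complex off by phosphorylation, beside 2.3% of all promoters. After weight loss 0 of 23 were called in limma, and 2 had an unadjusted p under 0.05 beside 9.77% of all promoters. Bckdk promoter signal was 16.04, 15.42 and 16.65 in C against 14.99, 14.89 and 14.85 in H, and 15.81 and 17.28 in CC_l against 14.72, 14.53 and 14.62 in HH. All obese libraries were below all controls of their age, as they were at 3.74% of promoters. Bckdk fell by 1.48 (SE 0.30, limma adjusted p = 0.029). After weight loss it was 14.96, 18.24 and 17.34 in CC_s and 16.78, 15.49 and 16.07 in HC, which overlapped, and the joint difference was -0.64 ± 0.56 (limma adjusted p = 0.618).

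Bcat1, the cytosolic aminotransferase and a counterpart of Bcat2, was higher without passing. Its promoter signal was 14.97, 14.19 and 14.19 in C against 15.68, 15.31 and 15.47 in H, with C 2 and C 3 at the floor, and 14.19 and 14.34 in CC_l against 14.19, 16.10 and 16.00 in HH. After weight loss it was 14.56, 14.19 and 14.46 in CC_s against 15.21, 16.35 and 15.42 in HC, and 14.19 and 14.19 in CCC against 14.98, 15.66 and 16.16 in HHC. All weight loss libraries lay above all controls of their age, several of which were at the floor, and 0.693% of promoters were higher without overlap in both weight loss pairs. The difference was 1.10 ± 0.33 in obesity (limma adjusted p = 0.098) and 1.33 ± 0.27 after weight loss (limma adjusted p = 0.162).

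Over loci, 7 of the 23 passed in obesity, 6 lower and 1 higher, beside the 16.7% of all loci called, and 0 of 23 after weight loss in limma, with 3 at an unadjusted p under 0.05 beside 15.1% of all loci. The lower ones were Slc7a5, a subunit of the plasma membrane leucine transporter, at -1.77 ± 0.25 (limma adjusted p = 0.0015), Bckdk at -0.80, Echs1 at -0.61, Acadsb at -0.51, Hibch at -0.47 and Slc25a44, a mitochondrial carrier of branched-chain amino acids, at -0.37. Hibch acts just before Hibadh in valine breakdown. The higher one was Slc3a2, the other subunit of the leucine transporter, at 0.64 ± 0.14 (limma adjusted p = 0.0108). Slc7a5 locus signal was 18.49, 18.59 and 18.44 in C against 17.36, 15.98 and 16.69 in H, and 17.65, 18.79 and 18.46 in CC_s against 17.68, 17.42 and 17.34 in HC. It was 18.72 and 17.97 in CC_l against 16.68, 17.06 and 16.23 in HH, and 18.29 and 18.51 in CCC against 17.31, 17.44 and 16.09 in HHC. Both obese groups and HHC lay wholly below their controls, and HC overlapped CC_s. Of all loci, 7.36% were lower without overlap in both obesity pairs, and the share for HHC as well was not counted. After weight loss the joint difference was -1.10 ± 0.29 (limma adjusted p = 0.165).

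**Figure D5:**
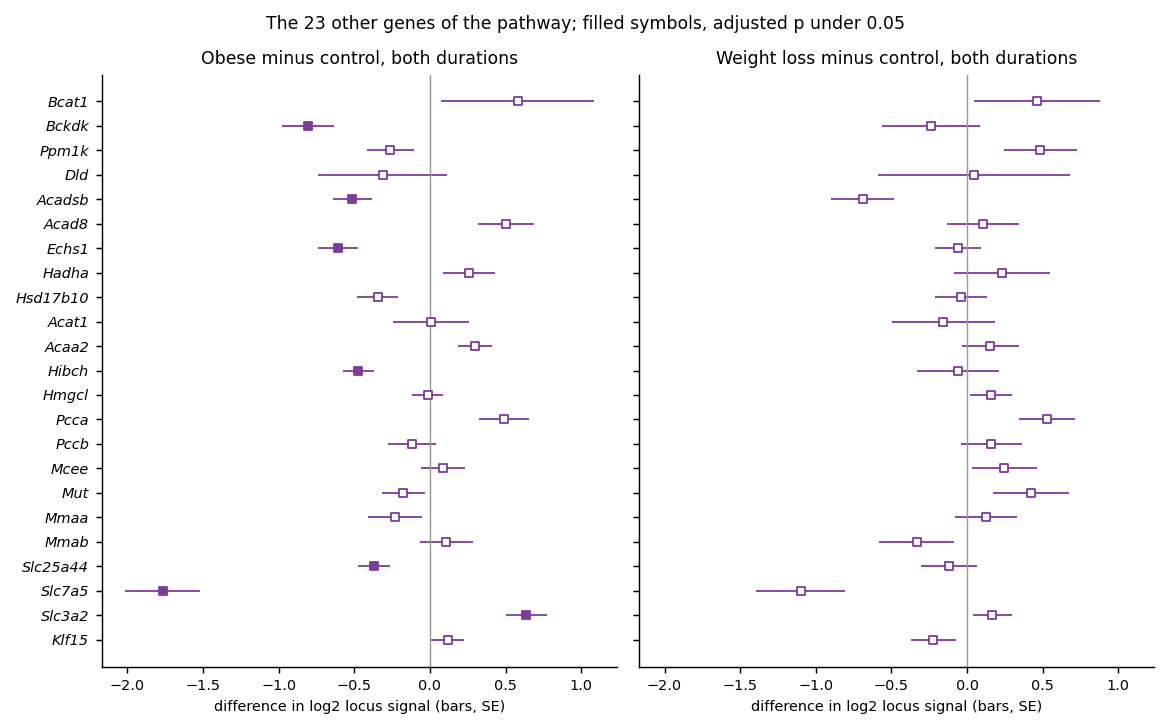
Differences in log2 locus signal of the 23 other pathway genes for obesity (left) and weight loss (right) over both durations, with standard errors as bars and filled symbols where the limma adjusted p was under 0.05. Of the 7 filled symbols in obesity, 6 are below zero and Slc3a2 is above it, and none is filled after weight loss.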

How the data were processed

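ATAC-seq was measured in 22 libraries, each from the labelled adipocyte nuclei of 1 mouse. According to the submitters' processing notes and the study's methods, the authors trimmed reads (Trim Galore 0.6.6), aligned them to GRCm38 (Bowtie2 2.4.4, SAMtools 1.13), summed them into coverage (bedtools 2.30) and called peaks per library without pooling (SEACR 1.3, stringent mode). The deposited values are in the unit signal, the total and the maximum coverage of a peak. No normalization is stated. The depth of each library is unknown, and the study gives only a minimum of reads per sample for its CUT&Tag and ATAC-seq libraries together. SEACR was run to keep a top share of the covered blocks of each library, so the number of peaks is no measure of depth.

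For each library the total signal was summed per promoter, locus and merged region and rank-mapped. Features in ranks beyond the smallest library sat at the floor (19432 promoters, 16763 loci and 30083 regions kept their ranks). limma 3.58.1 (R 4.3.3; lmFit and eBayes with a trend) was fitted on every feature that cleared the floor in enough libraries to fill the smaller group, with Benjamini-Hochberg adjustment over all of them. Python 3.11.15 with numpy 2.4.6 and pandas 2.3.3 did the rest. Locus differences were also tested by exact permutation within duration, two-sided. A pair alone cannot go below 0.1. The p-values measure the spread between these libraries. The code was tested on simulated data.

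Values in every library are given for genes with an unadjusted p under 0.01 in any of 6 fits. In each locus the region of smallest p in the 2 joint fits was a candidate, described in full where p was under 0.01 and the log2 difference beyond 1. Other pathway genes were to be named where the same held at their promoter in a joint fit, which gave Bcat1 and Bckdk. The 7 with a called locus were named after their values were seen. The rule that names the 10 genes uses no measured value, but members and lists were chosen with earlier results of these data known. No column was left unmatched (0). No sample was left out. Alternatives are a maximum signal, stronger peaks, other scalings, filters, windows and flanks, a replicate block, and fits without 1 replicate.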

Additional observations from a re-analysis of the deposited data

Results flagged for a closer look

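In 2 of 80 tests a member's effect differed between durations, or between obesity and weight loss, at an unadjusted p under 0.05, and neither passed after adjustment. The Bckdha locus difference was positive in H against C (0.33) and negative in HH against CC_l (-0.41), a change of -0.74 ± 0.24 on the log2 scale (SE, limma adjusted p = 0.928). The Auh locus difference was 0.17 in H against C and -0.62 in HC against CC_s, a change of -0.79 ± 0.29 (SE, limma adjusted p = 0.480). No group had enough libraries for a test of single outlying libraries.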

How the results depend on the processing

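Counts of members called were compared across settings, and the cause of each change was not tested. With a replicate block, 0 loci were called in H against C and 0 over both obesity durations, and 0 for covered length in obesity. Same-numbered libraries deviated with a correlation of -0.160 to 0.210 over 10 pairs, of which 2 were over 0.1. Libraries of different numbers deviated with a correlation of -0.225 to 0.225. With 2 or 3 libraries per group the deviations mirror each other, so these values cannot show whether the numbers pair the libraries. The 1 locus called in H against C became 0 with the maximum signal, with the strongest peaks only, with no filter, with all libraries of a duration in the fit, with no flank and with a flank of 50 kb. The 3 loci called in obesity became 1 with the strongest peaks only, 0 with no flank, 1 with a flank of 50 kb and 0 with the enrichment ratio as a covariate. The 1 locus called for covered length in obesity became 0 with the strongest peaks only, no filter, no trend, no flank, a flank of 50 kb, without the low-enrichment libraries and with the enrichment ratio as a covariate, and in H against C 0 became 1 with median-centred scaling. The 4 regions called in H against C became 0 with the maximum signal and 0 with the strongest peaks only. The 1 region called in obesity became 3 with median-centred scaling and 0 with the maximum signal. In weight loss 0 became 1 with median-centred scaling, and in HC against CC_s 0 became 1 with all libraries of a duration. The Hibadh locus in weight loss reversed to 0.11 with the maximum signal. Leaving out 1 library each gave 0 to 1 loci in H against C, 0 to 3 in obesity, 0 to 1 for covered length in obesity, 0 to 4 regions in H against C and 0 to 3 in obesity. All other leave-one-out counts stayed at 0. The 2 alternatives on enrichment were chosen after the data had been seen. The precision is limited by 2 or 3 libraries per group.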

Other observations

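The genes whose locus signal varied most like the mean of the 10 loci over 22 libraries were Gpc4 (Pearson r = 0.948), Eci3 (0.939), Arxes2 (0.935), Cstf2 (0.933) and Fate1 (0.932), chosen as the 5 highest of all protein-coding genes outside the lists. Gpc4, Arxes2, Cstf2 and Fate1 lie on chromosome X and Eci3 on chromosome 13. The points share libraries and enrichment, and the values are a description.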
